A study of Mus musculus with 20 samples.

Results

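The genes described here mark myeloid cells that enter the liver from blood. They comprise Ly6c2, Ccr2, Itgam, Itgb2, Lyz2, Cd14, Fcgr1, Cx3cr1, S100a8 and S100a9, which are 10 of the 54325 genes in each of 2 deposited gene tables. They were chosen by name, and all 10 were found in both tables and were tested in both. Their levels were compared in mouse liver on regular chow and on MCD, a diet lacking methionine and choline, after a control IgG or an antibody that neutralizes ACBP, the acyl-CoA binding protein encoded by Dbi.

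Inflamed liver recruits monocytes from bone marrow through the chemokine CCL2 and its receptor CCR2, and these cells carry the surface protein Ly6C. In tissue they can become macrophages, which lower Ly6C and keep or gain CX3CR1, lysozyme, CD14 and the high-affinity IgG receptor encoded by Fcgr1. Neutrophils and monocytes share the integrin CD11b/CD18, made by Itgam and Itgb2, and the calcium-binding pair S100A8 and S100A9, which together form calprotectin. None of the genes belongs to a single cell type. Resident macrophages also express Itgb2, Lyz2, Cd14 and Fcgr1, and Cx3cr1 is known from several macrophage and lymphoid populations.

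RefSeq promoter windows on build GRCm38.p6 ran from 250 bases before to 50 bases after the start of transcription. They were at hand for 8 of the 10 genes, and were searched because 9 of the 10 fell with anti-ACBP on MCD. Printed here are 5 windows, which include each one that held the letters marked below. The windows not printed, of Ccr2, Lyz2 and Cx3cr1, held 0 matches to those letters. S100a8 and S100a9 are neighbours in the RefSeq annotation of that build. Capitals mark GAGGAA on either strand, the core of sites bound by PU.1, the myeloid transcription factor encoded by Spi1.
Ly6c2, chr15:75111922-75112221, minus strand: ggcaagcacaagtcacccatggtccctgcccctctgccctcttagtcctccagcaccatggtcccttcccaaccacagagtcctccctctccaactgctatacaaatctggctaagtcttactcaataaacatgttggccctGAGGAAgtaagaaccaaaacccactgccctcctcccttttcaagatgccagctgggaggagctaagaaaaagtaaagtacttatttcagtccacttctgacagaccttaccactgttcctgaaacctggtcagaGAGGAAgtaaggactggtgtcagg
Itgam, chr7:128062390-128062689, plus strand: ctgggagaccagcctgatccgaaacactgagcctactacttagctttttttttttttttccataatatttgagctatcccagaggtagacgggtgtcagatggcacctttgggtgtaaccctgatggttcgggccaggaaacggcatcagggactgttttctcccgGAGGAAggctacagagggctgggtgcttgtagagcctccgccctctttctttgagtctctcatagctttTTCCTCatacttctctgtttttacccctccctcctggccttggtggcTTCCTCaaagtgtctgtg
Fcgr1, chr3:96293920-96294219, minus strand: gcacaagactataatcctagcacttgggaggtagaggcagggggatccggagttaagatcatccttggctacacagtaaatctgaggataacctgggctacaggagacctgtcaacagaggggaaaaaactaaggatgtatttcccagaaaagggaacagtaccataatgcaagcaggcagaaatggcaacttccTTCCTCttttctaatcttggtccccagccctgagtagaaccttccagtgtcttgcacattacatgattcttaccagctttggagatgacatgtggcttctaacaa
S100a8, chr3:90668821-90669120, plus strand: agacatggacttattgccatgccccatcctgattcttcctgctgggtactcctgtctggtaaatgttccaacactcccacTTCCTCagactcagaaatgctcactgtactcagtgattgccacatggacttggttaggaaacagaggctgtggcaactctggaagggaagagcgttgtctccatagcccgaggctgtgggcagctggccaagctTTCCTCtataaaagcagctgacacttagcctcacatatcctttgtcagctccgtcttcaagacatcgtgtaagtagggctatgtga
S100a9, chr3:90695672-90695971, minus strand: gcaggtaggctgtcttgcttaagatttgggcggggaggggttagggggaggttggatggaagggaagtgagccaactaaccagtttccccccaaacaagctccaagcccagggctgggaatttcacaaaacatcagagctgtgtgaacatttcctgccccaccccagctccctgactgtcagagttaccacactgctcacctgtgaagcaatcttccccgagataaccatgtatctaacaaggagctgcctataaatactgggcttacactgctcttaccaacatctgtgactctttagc
Of the 8 windows 4 held this motif (Ly6c2, Itgam, Fcgr1 and S100a8), with 3 matches in Itgam and 2 in each of Ly6c2 and S100a8. Of 27025 promoter windows of all genes, 28.3% held it. The AP-1 motif TGANTCA, searched on both strands, was in 0 of the 8 and in 7.93% of all windows. The TATA box letters TATAAA, searched on the strand of the gene, were in 2 of the 8, beginning 30 bases before the start (position -30) in S100a8 and at base 1 in S100a9, and in 8.88% of all. No matches overlapped in the 8 windows. A match describes the letters and is not a measured binding site.

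Whole livers of C57BL/6 mice were profiled by strand-specific mRNA sequencing, with 5 labelled samples in each of 4 groups. The MCD groups, labelled NASH, received control IgG or anti-ACBP/DBI, and the chow groups, labelled healthy, received the same antibodies, so that every mouse was given an antibody. Sex, age and time on diet are not in the labels. Exact means of genes seen in single reads show 5 libraries per group behind the MCD table and 4 per group behind the chow table, although 5 are labelled, and which animals these were is not known here. The labels do not say that the samples of a group are separate animals, so the p-values measure the spread between samples, which may be technical. Group totals lay between 34621779 and 39398190 normalized counts (reads divided by a size factor). The liver transcript Alb had means between 1971740 and 3118590 normalized counts in the groups. Group means, log2 fold changes (anti-ACBP over IgG), their standard errors (SE) and adjusted p-values from 0.001 up are those of the authors' deposited tables in every sentence below. Smaller adjusted p-values were recomputed from the deposited fold changes and SEs, and a gene counts as changed when its adjusted p is under 0.05. Values of single libraries were not analysed here, so levels are given as group means.

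The first comparison asks how the antibody altered these genes in MCD livers. Of the 10 genes 9 were lower with anti-ACBP and 0 higher, against 16.2% of all 20265 tested genes that were lower. S100a9 did not pass. The median log2 fold change of the 10 was -2.28, and over all tested genes 0.02. Between the lowest and the highest mean of these genes lay 10788 tested genes, of which 20.5% were lower and 6.53% were lower by at least 1 on the log2 scale. In bulk liver, fewer cells of a type and less RNA per cell cannot be told apart. With column totals as the scale, each MCD fold change is lower by 0.19 on the log2 scale, which turns the split of called genes from 3288 lower and 2973 higher into 5468 lower and 1398 higher and brings the lower genes here to 10, with 27.0% of all tested genes lower.

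**Figure D1:**
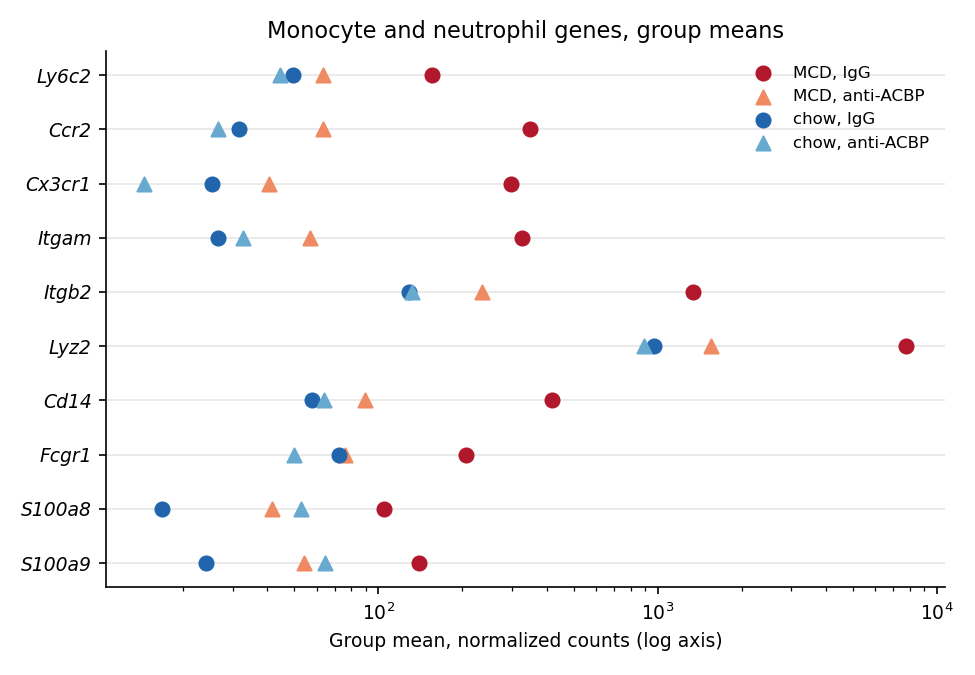
Group means of the 10 genes in normalized counts on a log axis, circles for IgG and triangles for anti-ACBP, red for MCD and blue for chow. Each gene stood highest in MCD livers with IgG, and the MCD anti-ACBP mean lay nearer to the chow means.

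Among the chemokine receptors and monocyte surface genes, Cx3cr1 and Ccr2 fell more than Ly6c2. Ccr2, the receptor that brings monocytes out of the marrow, had a mean of 350.4 normalized counts in MCD IgG livers and 63.1 with anti-ACBP in the authors' deposited table. That is 5.53-fold lower (log2 fold change -2.47 ± 0.22, SE; adjusted p = 8.46e-27). Cx3cr1, the receptor for fractalkine, went from 298 to 40.4 normalized counts, 7.38-fold lower (log2 fold change -2.88 ± 0.24, adjusted p = 4.87e-31). It had the most negative estimate of the 10 genes. Ly6c2, the antigen that marks classical monocytes, went from 156 to 63.1 normalized counts, 2.46-fold lower (log2 fold change -1.30 ± 0.23, adjusted p = 3.59e-07). The 95% interval for Ly6c2 ran from -1.76 to -0.84, and that for Ccr2 from -2.90 to -2.03. These estimates come from the same libraries, so the difference between the genes was not tested. Relative to Lyz2, the Ly6c2 mean on MCD was 0.0200 under IgG against 0.0407 under anti-ACBP, and on chow 0.0509 against 0.0496.

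The integrin chains fell by nearly the same factor. Itgam, the CD11b chain, had means of 326 normalized counts with IgG and 57.0 with anti-ACBP in the authors' deposited table, 5.82-fold lower (log2 fold change -2.54 ± 0.28, adjusted p = 6.18e-18). Itgb2, the CD18 chain that CD11b shares with the other leukocyte integrins, had means of 1337 and 235, 5.70-fold lower (-2.51 ± 0.18, adjusted p = 1.38e-41). The ratio of the Itgam to the Itgb2 mean was 0.244 and 0.243 on MCD and 0.206 and 0.247 on chow, with IgG and anti-ACBP in that order. These ratios of group means carry no error here.

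The genes of microbial defence and sensing also fell. Lyz2, the lysozyme of macrophages and granulocytes, had means of 7791 normalized counts with IgG and 1549 with anti-ACBP in the authors' deposited table, 5.03-fold lower (log2 fold change -2.33 ± 0.17, adjusted p = 1.74e-38). Cd14, the co-receptor that hands endotoxin to TLR4, had means of 420.2 and 89.8, 4.68-fold lower (-2.23 ± 0.23, adjusted p = 2.17e-19). Fcgr1, the high-affinity receptor for IgG, had means of 206 and 75.6, 2.74-fold lower (-1.46 ± 0.28, adjusted p = 2.09e-06).

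S100a8 and S100a9 had the least certain values. S100a8 fell from 105 to 41.4 normalized counts, 2.53-fold (log2 fold change -1.34 ± 0.47, adjusted p = 0.0187), in the authors' deposited table. Its call is lost at an adjusted p threshold of 0.01. S100a9 had means of 139.7 and 53.9 normalized counts (log2 fold change -1.37 ± 0.62, adjusted p = 0.0775, unadjusted p = 0.0267 in the authors' deposited table). Scaled to column totals, the S100a9 value became -1.56 and passed (adjusted p = 0.0373). S100a8 stood at 0.748 of the S100a9 mean in MCD IgG livers, 0.767 in MCD anti-ACBP livers, and 0.696 and 0.819 in the chow groups.

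The SE of these 2 genes stood out most for their level. The SE of S100a8 on MCD was larger than that of 96.9% of the 2644 tested genes whose means lay within 0.5 to 2 times its own, and for S100a9 the share was 99.0% of 2757. On chow the shares were 98.6% for S100a8 and 99.5% for S100a9. Under the variance model of negative binomial counts, the deposited SEs imply a spread between the samples of a group of 50.3% of the mean for S100a8 and 67% for S100a9 on MCD. On chow the implied spreads were 72.9% and 102%. For Ly6c2, Ccr2, Itgam, Itgb2, Lyz2, Cd14, Fcgr1 and Cx3cr1 the implied spread on MCD was 18.9% to 28.9%. Their SEs on MCD were also above those of most genes of like mean, from 61.9% of them for Ly6c2 to 91.6% for Itgam. For Lyz2 the implied spread on MCD was 18.9%, against a median of 10.8% over genes of like mean. Lyz2 also had a large SE for its high level on chow, above that of 97.0% of 4251 genes of like mean.

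**Figure D2:**
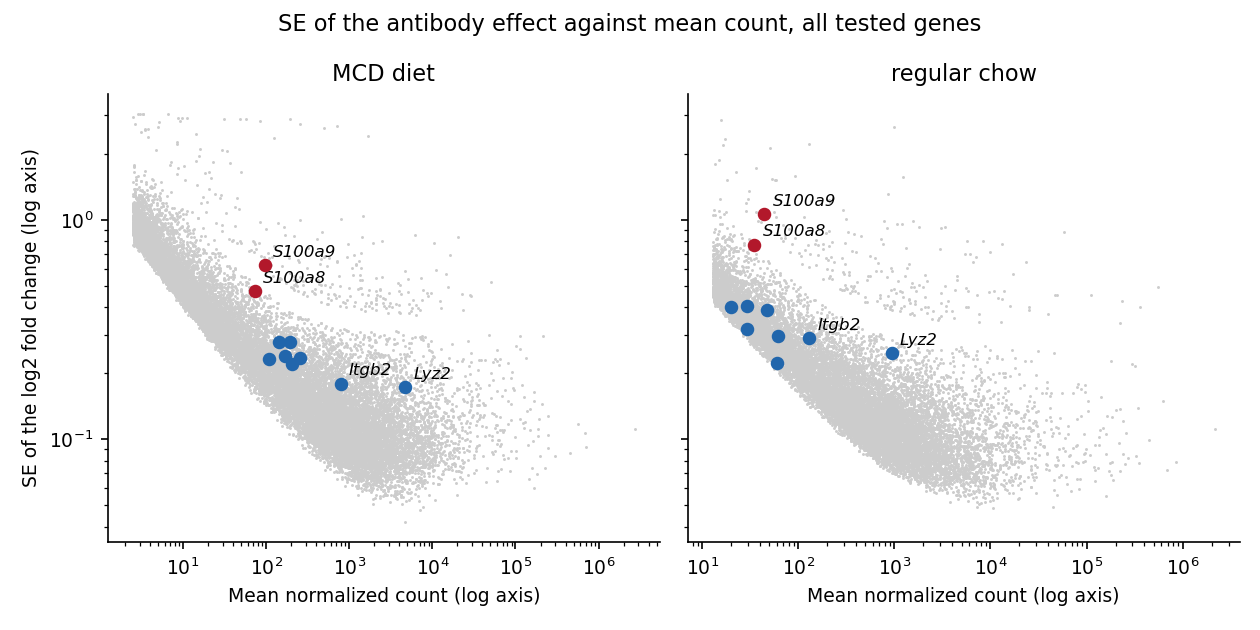
SE of the antibody log2 fold change against the mean normalized count, both on log axes, for all tested genes (grey) and the 10 genes (blue, with S100a8 and S100a9 in red), on MCD at the left and chow at the right. S100a8 and S100a9 lay above the bulk of genes of like mean in both tables.

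Per exon length, Lyz2 was the most abundant of the 10 in MCD IgG livers, at 171 CPM per kb (CPM being normalized counts scaled to a column total of 1000000, over the GENCODE vM21 length of all exons of the gene). Itgb2 followed at 12.7, S100a9 at 7.73, Cd14 at 7.01 and S100a8 at 4.35 CPM per kb. Fcgr1, Cx3cr1, Itgam, Ly6c2 and Ccr2 lay between 1.50 and 2.30 CPM per kb. Exons that are rarely used lengthen a gene in this measure, and the order among these last 5 has no error attached.

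The second comparison asks whether the antibody altered the genes in chow livers. Of the 10 genes 0 passed the authors' DESeq2 test in either direction, against 12% of all 14618 tested genes, and 2 had an unadjusted p under 0.05. Their median log2 fold change was -0.04, with 5 values above and 5 below 0. Lyz2 had means of 972 and 896 normalized counts with IgG and anti-ACBP in the authors' deposited table (log2 fold change -0.12 ± 0.25, 95% interval -0.60 to 0.37). Itgb2 had means of 129 and 132 (0.04 ± 0.29, interval -0.53 to 0.60) and Cd14 of 57.8 and 63.7 (0.14 ± 0.22, interval -0.30 to 0.58). Ccr2 stood at 31.7 and 26.7 normalized counts (-0.25 ± 0.32), Ly6c2 at 49.5 and 44.4 (-0.17 ± 0.39), and Itgam at 26.5 and 32.6 (0.37 ± 0.40). The intervals of Ccr2, Ly6c2 and Itgam ran from -0.87 to 0.37, from -0.94 to 0.59 and from -0.42 to 1.16, so smaller changes were not detectable at this depth and spread.

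Cx3cr1 and S100a8 were the genes with an unadjusted p under 0.05 on chow, and they lay on opposite sides of 0. Cx3cr1 had means of 25.3 and 14.5 normalized counts in the authors' deposited table (log2 fold change -0.83 ± 0.40, p = 0.0398, adjusted p = 0.1805). S100a8, again in the authors' deposited table, had means of 16.8 and 52.8 normalized counts (1.65 ± 0.77, p = 0.0321, adjusted p = 0.158). S100a9 stood at 24.1 and 64.5 (1.42 ± 1.06, adjusted p = 0.444) and Fcgr1 at 72.5 and 49.7 (-0.54 ± 0.30, adjusted p = 0.2503). The antibody means of S100a8 and S100a9 on chow were above the anti-ACBP means on MCD, which were 41.4 and 53.9. Scaling to column totals, which moves every chow value up by 0.14 on the log2 scale, called 0 of the 10, against 3138 of all 14618 tested genes.

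**Figure D3:**
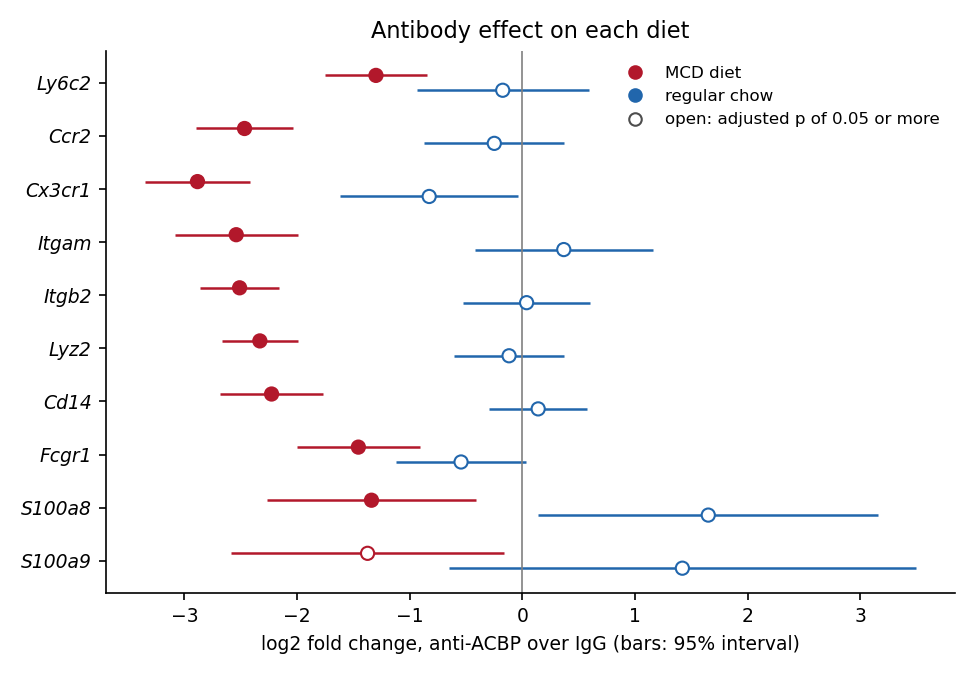
log2 fold change of anti-ACBP over IgG for each of the 10 genes on MCD (red) and chow (blue), with 95% intervals from the deposited SEs, filled where the adjusted p was under 0.05. The MCD values lie between -2.88 and -1.30, and the chow values between -0.83 and 1.65.

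The antibody effect was then compared between diets, as the difference of the deposited log2 fold changes over the root of their summed squared SEs, computed here and adjusted over 14607 genes. The differences of the 10 genes, MCD minus chow, ran from -2.99 to -0.91. At an adjusted p under 0.05 the effect was called more negative on MCD for 7 of the 10 genes, against 10.6% of all genes. The difference was -2.55 ± 0.34 for Itgb2 (adjusted p = 8.17e-12), -2.21 ± 0.30 for Lyz2 (adjusted p = 2.50e-11) and -2.37 ± 0.32 for Cd14 (adjusted p = 2.67e-11). It was -2.91 ± 0.49 for Itgam, -2.22 ± 0.39 for Ccr2 and -2.06 ± 0.47 for Cx3cr1 (adjusted p = 1.27e-07, 3.49e-07 and 1.75e-04). For S100a8 the difference was -2.99 ± 0.90 (adjusted p = 0.00707). The test was not passed by Ly6c2 (-1.13 ± 0.45, adjusted p = 0.0553), S100a9 (-2.80 ± 1.23, adjusted p = 0.0828) and Fcgr1 (-0.91 ± 0.41, adjusted p = 0.0880). Scaled to column totals, which shifts every gene towards a more negative difference, these 3 passed as well (adjusted p = 0.00620, 0.0329 and 0.00930). The share of all genes called more negative on MCD then rose from 10.6% to 32.3%.

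Levels on MCD were set beside those on chow as ratios of group means, without a test, because the authors scaled the tables separately. Ratios were centred on the median of 8857 genes with a CPM of 5 or more in all groups. Of the 10 genes only Lyz2 reached that level in all groups. Shares of the 8857 genes, here and below, are therefore not shares of genes at a like level. With IgG, the 10 genes stood 2.42-fold to 10.4-fold higher on MCD than on chow, with a median of 6.49-fold, and 10 of 10 lay at 1 or more on the log2 scale, as did 4.13% of the 8857 genes. Itgam, Ccr2 and Itgb2 had ratios of 10.4, 9.40 and 8.83, Cx3cr1 stood at 3.32 on the log2 scale, and Lyz2 and Cd14 of 6.81 and 6.18. S100a8 and S100a9 had ratios of 5.30 and 4.93, and Ly6c2 and Fcgr1 of 2.67 and 2.42. These ratios and the antibody effect on MCD share the MCD IgG libraries, so they are not separate measurements.

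MCD livers with anti-ACBP were also set beside chow livers with IgG, which share no libraries. The 10 genes lay at 0.837-fold to 1.98-fold of the chow IgG level, with a median of 1.37-fold, and 0 of 10 reached 1 on the log2 scale, as 1.12% of the 8857 genes did. That count depends on the centring. On column totals S100a8, S100a9 and Itgam had log2 ratios of 1.28, 1.14 and 1.07, and without centring of 1.31, 1.17 and 1.10. S100a8, S100a9, Itgam and Ccr2 had ratios of 1.98, 1.80, 1.73 and 1.60. Itgb2, Cx3cr1, Lyz2 and Cd14 had ratios of 1.47, 1.28, 1.28 and 1.25, and Ly6c2 of 1.02. Fcgr1 was at 0.837, a log2 ratio of -0.26 that turned to 0.06 without centring and to 0.03 on column totals. Against chow with anti-ACBP the MCD anti-ACBP means were 0.639-fold for S100a8 and 0.682-fold for S100a9, and 1.15-fold to 2.28-fold for the other genes.

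**Figure D4:**
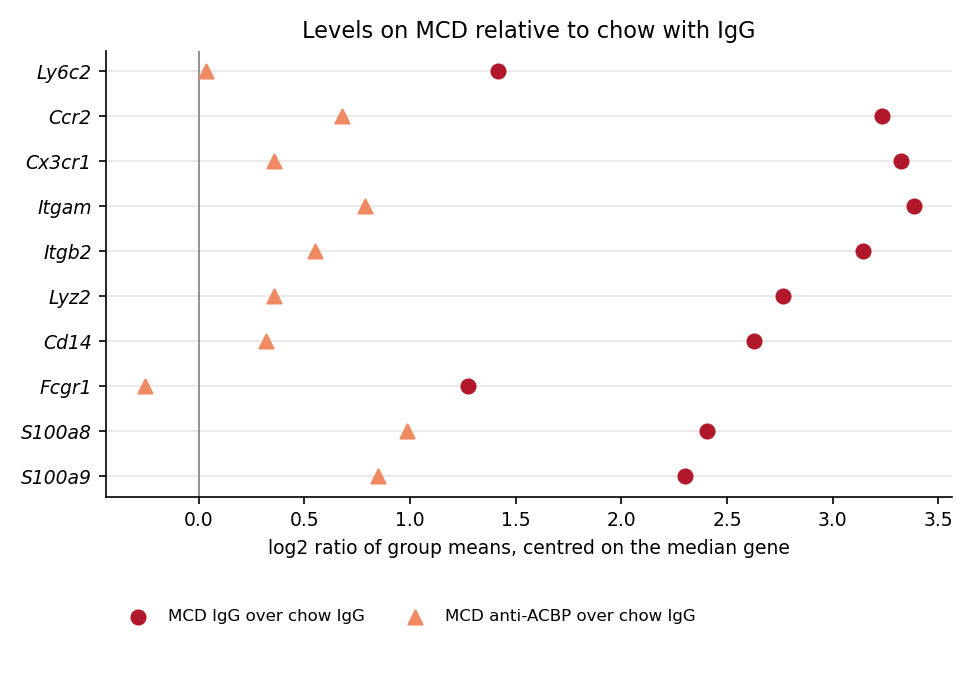
log2 ratio of the MCD group means to the chow IgG means for each of the 10 genes, centred on the median gene, red circles for MCD IgG and orange triangles for MCD anti-ACBP. With IgG the ratios lie between 1.27 and 3.38, and with anti-ACBP between -0.26 and 0.99.

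The chemoattractants that act on the receptors above were mostly lower on MCD as well. Of 17 chemoattractant and growth factor genes 13 were tested on MCD, of which 12 fell and 0 rose, with a median log2 fold change of -2.06. The CCR2 ligands Ccl2 and Ccl7 fell from 273 to 28.3 and from 40.1 to 3.09 normalized counts in the authors' deposited table (-3.27 ± 0.29 and -3.67 ± 0.49, adjusted p = 4.54e-27 and 2.90e-12). Cx3cl1, which encodes fractalkine, fell from 142 to 50.6 (-1.49 ± 0.28, adjusted p = 1.41e-06). The CXCR2 ligands of the neutrophil route, Cxcl1, Cxcl2 and Cxcl5, had log2 fold changes of -2.06 ± 0.46, -3.11 ± 0.37 and -3.29 ± 0.45. Csf1, the macrophage growth factor, fell by 0.84 on the log2 scale (SE 0.14, adjusted p = 1.80e-08), while Ppbp, a platelet chemokine, was at 0.59 ± 0.43 (adjusted p = 0.314). On chow 7 of the 17 were tested and 0 passed (2 with an unadjusted p under 0.05, Ccl2 and Cx3cl1), with Ccl2 at 28.7 and 9.43 normalized counts (-1.61 ± 0.60, adjusted p = 0.0572).

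Other receptors of these signals showed a wide range. Of 12 chemoattractant receptor genes 10 fell on MCD and 0 rose, and on chow 0 of 11 tested passed (1 with an unadjusted p under 0.05, Cxcr4). The complement receptors C5ar1 and C3ar1 fell from 255 to 25.5 and from 354 to 76.4 normalized counts in the authors' deposited table (adjusted p = 1.80e-27 and 1.61e-26), and Ccr1 from 68.4 to 8.83 (adjusted p = 9.67e-15). Csf2rb, a receptor chain for GM-CSF, had a log2 fold change of -1.78 and the macrophage receptor Csf1r of -1.29. Csf3r, the receptor for G-CSF on neutrophils, fell from 313 to 127 normalized counts (-1.31 ± 0.23, adjusted p = 3.61e-07). The neutrophil chemokine receptor Cxcr2 was at 30.5 and 21.98 (-0.48 ± 0.34, adjusted p = 0.307) and the formyl peptide receptor Fpr1 at 59.5 and 57.7 (-0.04 ± 0.42, adjusted p = 0.955).

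Of 16 integrin and adhesion genes 11 fell, 0 rose and 5 did not pass on MCD, with a median of -1.15, and on chow 0 of 14 tested passed (0 with an unadjusted p under 0.05). The alpha chains that pair with CD18 fell, with Itgax at -3.25 ± 0.20 and Itgal at -1.52 ± 0.14 (adjusted p = 1.67e-56 and 1.58e-25) in the authors' deposited table. Fermt3, the kindlin that activates leukocyte integrins, stood at -1.43 ± 0.16, and Selplg, the ligand of P-selectin, at -1.55 ± 0.17 (adjusted p = 3.21e-18 and 2.00e-17). The endothelial counter-receptors Icam1 and Vcam1 fell from 1319 to 591 and from 1393 to 627 normalized counts (-1.16 ± 0.17 and -1.15 ± 0.20). Of the other adhesion genes, Sele had a log2 fold change of -3.51 ± 0.61. Icam2, Selp and Jam3 did not pass, at 0.13 ± 0.20, -0.39 ± 0.22 and -0.25 ± 0.24 (adjusted p = 0.677, 0.163 and 0.478). Widely expressed partners did not pass either, with Itgb1 at 0.05 ± 0.07 (adjusted p = 0.634) and the integrin activator Tln1 at -0.15 ± 0.08 (adjusted p = 0.169).

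The partners of CD14 and of the Fc receptor were looked at next. Of 12 genes of the endotoxin receptor pathway 3 fell and 2 rose on MCD, with a median of -0.23. Over all tested genes 16.2% were lower and 14.7% higher on MCD, and a difference of the pathway from these shares was not tested. Tlr2, Tlr4 and the adaptor Ticam2 fell, at -2.41 ± 0.21, -1.54 ± 0.24 and -1.65 ± 0.36 in the authors' deposited table (adjusted p = 4.63e-28, 2.86e-09 and 4.05e-05), and the adaptor Tirap and the ligase Traf6 rose, by 0.48 ± 0.12 and 0.21 ± 0.09 (adjusted p = 5.29e-04 and 0.0495). The TLR4 partner Ly96 stood at -0.28 ± 0.16 (adjusted p = 0.185). On chow, Lbp, the plasma protein that loads CD14, fell by 0.57 (SE 0.15, adjusted p = 0.00298) and Ticam1 by 0.37 (SE 0.11, adjusted p = 0.0164). Of 8 Fc receptors and their kinases 7 fell on MCD, among them Fcer1g, the signalling chain of the Fcgr1 product, from 767 to 246 normalized counts (-1.64 ± 0.17, adjusted p = 2.61e-19), and Fgr (-1.80 ± 0.19, adjusted p = 3.18e-20). The inhibitory receptor Fcgr2b, abundant in liver sinusoidal endothelium, was at 1501 and 1730 normalized counts (0.21 ± 0.13, adjusted p = 0.253), and rose on chow by 0.50 ± 0.18 (adjusted p = 0.0486).

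Of 16 further monocyte genes 14 fell and 0 rose on MCD, with a median of -1.63, and on chow 8 were tested and 0 passed (0 with an unadjusted p under 0.05). In the authors' deposited table the C-type lectin Clec4e fell from 112 to 6.86 normalized counts and the chitinase-like Chil3 from 70.8 to 2.97 (-4.10 ± 0.42 and -4.53 ± 0.60, adjusted p = 2.73e-20 and 2.41e-12). Ms4a6c fell by 1.76 (adjusted p = 1.20e-16). Treml4 and Ace, markers of the Ly6C-low patrolling subset, had log2 fold changes of -1.76 ± 0.27 and -1.24 ± 0.18, and Plac8, high in the classical subset, had -1.03 ± 0.15. The transcription factor Nr4a1, which the patrolling subset needs, fell from 673 to 237 normalized counts (-1.50 ± 0.48, adjusted p = 0.00748). On chow Nr4a1 had means of 110.0 and 1007 and no p in the authors' deposited table.

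Neutrophil genes were uneven in level, and the label of the 10 genes is weaker on this side. Of 20 neutrophil genes 12 were tested on MCD, of which 6 fell and 0 rose, with a median of -1.44. Csf3r, Cd177, Fpr2 and Mmp8 had the smallest adjusted p of these, Cd177 going from 13.3 to 1.23 normalized counts in the authors' deposited table (-3.43 ± 0.82, adjusted p = 2.03e-04), Mmp8 from 19.4 to 2.96 (-2.72 ± 0.71, adjusted p = 7.78e-04) and Fpr2 from 32.5 to 12.4 (-1.40 ± 0.36, adjusted p = 6.33e-04). Some of the 20 genes stood near 0, with MCD IgG means of 2.08 for Ly6g, 2.64 for Ngp, 2.99 for Ltf, 1.12 for Mpo and 0.58 for Elane, and of 0 for Camp and Ctsg. Others were higher in the same livers, among them Csf3r, Mmp9 and Cxcr2 with MCD IgG means of 312.6, 44.3 and 30.5. Retnlg had means of 36.1 and 5.51 with no p in the table. On chow 7 were tested: the protease Prtn3 fell from 23.8 to 5.17 (-2.18 ± 0.52, adjusted p = 7.77e-04) and Hdc, which makes histamine and is also a mast cell and basophil gene, rose from 82.8 to 164 (0.99 ± 0.28, adjusted p = 0.00738).

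Close paralogs bear on Ly6c2, Lyz2 and the S100 pair. Ly6c1, whose sequence is close to that of Ly6c2 and which endothelial cells express, had means of 18.6 and 18.7 normalized counts on MCD (0.01 ± 0.38, adjusted p = 0.988), and reads of the 2 genes may have been split, so the Ly6c2 values are uncertain to that extent. Lyz1 had means of 18.7 and 5.06 in the authors' deposited table (-1.89 ± 0.55, adjusted p = 0.00291), against 7791 and 1549 for Lyz2. Ly6e, a widely expressed family member, fell on both diets, by 0.98 on MCD and 0.63 on chow (adjusted p = 3.31e-18 and 6.71e-05). Ly6a was at -0.37 ± 0.16 on MCD (adjusted p = 0.0688). S100a4, S100a6, S100a10 and S100a11 fell on MCD, by 2.83, 1.78, 1.56 and 2.07 on the log2 scale, and S100a10 also fell on chow, by 1.22 (adjusted p = 4.32e-06).

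Markers of other cells moved with these genes on MCD, and their part in the result was not tested. All 14 general leukocyte genes fell, at a median of -1.78, among them Ptprc (-1.42 ± 0.20), the oxidase chain Cybb (-1.95 ± 0.13, adjusted p = 1.16e-46) and Spi1 (-1.93 ± 0.17, adjusted p = 1.10e-26), which encodes PU.1. Their sum went from 13745 normalized counts with IgG to 5926 with anti-ACBP on MCD, and was 5146 and 5403 on chow. Lcp1, at -0.37 ± 0.12 on MCD, made up 3880 and 3013 of the MCD sums and 3087 and 3565 of the chow sums. All 10 lipid-associated macrophage markers fell, from a sum of 26050 to 4641, with Gpnmb and Trem2 at -4.58 ± 0.21 and -3.07 ± 0.19 in the authors' deposited table. The sum over the 10 genes of this report went from 11130 to 2268 on MCD, and was 1405 and 1377 on chow.

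Resident macrophage, lymphoid and other markers behaved less uniformly on MCD. Over all tested genes 16.2% were lower and 14.7% higher on MCD, and 6.46% lower and 5.58% higher on chow. The counts of T and NK cell and of endothelial markers on MCD lie near these shares. Of 12 Kupffer cell markers 6 fell and 1 rose, from a sum of 17000 to 10432 normalized counts. C1qb and Csf1r fell by 1.24 and 1.29 on the log2 scale, the embryonic-type marker Timd4 rose from 53.3 to 118 (1.14 ± 0.43, adjusted p = 0.0309), and Clec4f had means of 1635 and 2130 (0.38 ± 0.40, adjusted p = 0.519) in the authors' deposited table. Of 8 dendritic cell markers 3 fell and Bst2 rose, with a sum of 4523 and 6724. Bst2 alone made up 3840 and 6227 of these, so the sum follows that gene and not the list. Of 13 T and NK cell markers 2, Prf1 and Gzma, fell, with a sum of 348 and 245. Among the 8 B and plasma cell markers none was called by the authors' DESeq2 test and 1, Mzb1, had an unadjusted p under 0.05, with a sum of 329 and 326. Of 10 endothelial markers Kdr rose and Lyve1 fell, with a sum of 10040 and 9654. Of 10 stellate cell markers 8 fell, with a sum of 22294 and 12022, and of 8 cholangiocyte markers 4 fell, with a sum of 4266 and 2236. Of 6 platelet markers, 4 tested, Pf4 and Itgb3 fell and Itga2b rose, with a sum of 509 and 371. Of 7 red blood cell markers 5 rose, with a sum of 11293 and 20848, and of 12 hepatocyte markers 7 rose and 1 fell, with a sum of 4522090 and 5558460. On chow 0 leukocyte, Kupffer, T and NK, B and plasma, platelet or endothelial markers passed, and 1, 1, 1, 0, 1 and 2 of them had an unadjusted p under 0.05. Lpl, Bst2, Alas2 and Sox9 were the lipid-associated macrophage, dendritic, red blood cell and cholangiocyte markers that fell on chow, while 2 stellate markers rose and 3 fell, and 1 hepatocyte marker rose and 2 fell. Some genes stand on more than 1 list.

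**Figure D5:**
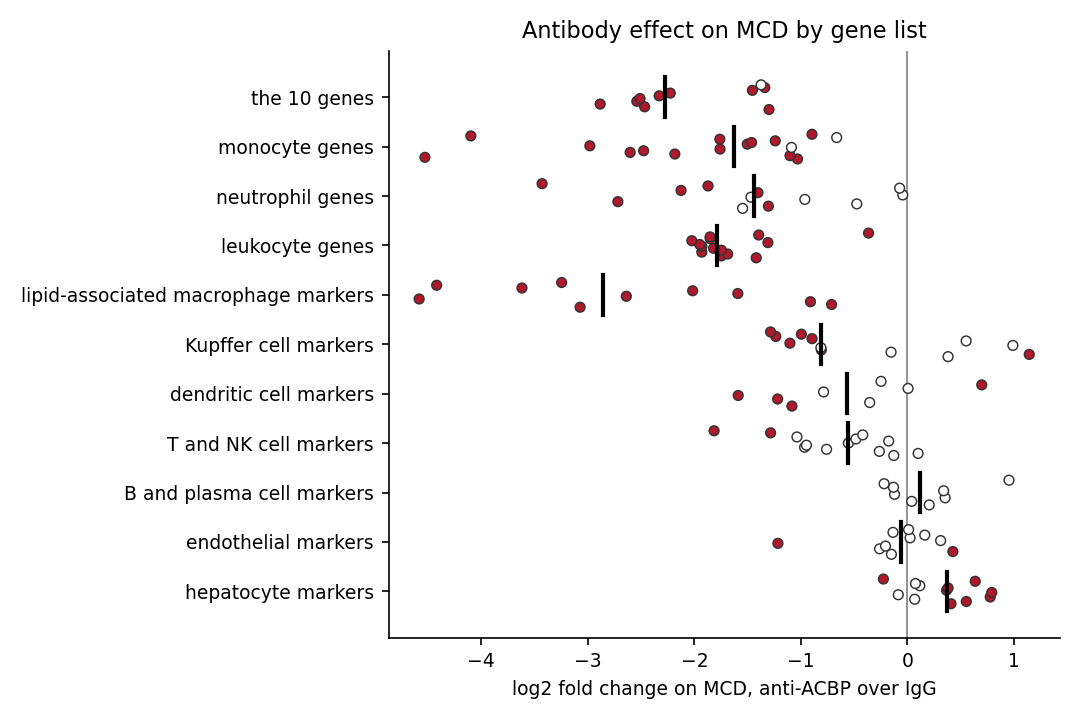
log2 fold change of anti-ACBP over IgG on MCD for each tested gene of the 10 genes and of 10 lists, filled where the adjusted p was under 0.05, with a bar at each list's median. The medians run from -2.86 for lipid-associated macrophage markers to 0.37 for hepatocyte markers, with -2.28 for the 10 genes.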

How the data were processed

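Liver mRNA of 20 labelled samples in 4 groups was measured. The submitters' processing notes name HISAT2 2.2.1, HTSeq 0.13.5, DESeq2 without a version and build mm39. The authors deposited 1 DESeq2 table per diet, per the file headers. The deposited signal columns are mean normalized counts, over all libraries of a table and per group. The deposited log2 column is the fold change of anti-ACBP over IgG with its SE and ends at -5 and 5, values that none of the 10 genes reached. Deposited p-values, raw and adjusted, are rounded to 6 decimals and stand at 1 where none was given.

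No count model was fitted here, because values per library were not analysed. A gene was taken as tested if its mean reached the lowest mean with an adjusted p under 1 (2.49 on MCD, 12.9 on chow) and a p was given, which left 20265 and 14618 genes. Adjusted p-values under 0.001 were recomputed from the fold changes and SEs, which changed 0 calls. The test between diets assumes normal errors. It was run on simulated data for the 14607 genes, 200 of them changed, with normal errors drawn at the deposited SEs. A log2 difference of 1 was recovered in 64.0% and one of 2 in 90.7%, with 4.76% and 4.73% false calls. The draws used the same SEs as the test, so these shares do not show whether the SEs or the normal errors hold. For ratios between diets, means under 3 normalized counts were set to 3.

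The 10 genes and the 20 gene lists beside them were chosen with earlier results of these data known. The genes named are all 10 members and their paralogs, partners and ligands, and the list genes with the smallest adjusted p. Other list genes, Nr4a1 and Retnlg among them, were named after their values were seen. Adjustment was by Benjamini-Hochberg. Exon lengths came from GENCODE vM21 (GRCm38) and promoters from RefSeq GRCm38.p6, while the files use mm39, so no coordinates were joined. Alternatives were scaling by column totals, no filter, a mean of 10 or more, a threshold of 0.01 and a pseudocount of 1. Python 3.11.15, numpy 2.4.6, pandas 2.3.3, scipy 1.17.1 and matplotlib 3.10.9 were used.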

Additional observations from a re-analysis of the deposited data

Results flagged for a closer look

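The antibody effect differed between MCD and chow in the test of the difference itself for 7 of the 10 genes, each more negative on MCD. Of all 14607 genes 10.6% were called more negative on MCD. The difference, MCD minus chow on the log2 scale, was -2.22 for Ccr2, -2.91 for Itgam, -2.55 for Itgb2 and -2.21 for Lyz2. It was -2.37 for Cd14, -2.06 for Cx3cr1 and -2.99 for S100a8. For S100a8 the estimates lay on opposite sides of 0, at -1.34 on MCD and 1.65 on chow, and the chow value alone did not pass (adjusted p = 0.158). Its SE was among the largest of genes of like mean on both diets. Samples far from the rest of their group could not be looked for, since values of single libraries were not analysed.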

How the results depend on the processing

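No paired analysis was possible because the labels give no replicate numbers shared between groups and values per library were not analysed, and for the same reason leaving out each replicate was not run. On MCD, S100a9 passed on column totals (-1.56) and S100a8 did not pass at 0.01 (-1.34). The filters and the threshold leave each fold change as it is, so its direction is not tested by them. The number of the 10 called lower on MCD ran from 8 to 10. Of all 20265 tested genes, those lower on MCD ran from 2519 at 0.01 to 5468 on column totals. On chow 0 of the 10 were called in each setting, against 1007 of all 14618 tested genes at 0.01 and 3138 on column totals. Scaling to column totals gave 5468 lower and 1398 higher genes on MCD, 3138 genes on chow (533 lower, 2605 higher) and 5438 between diets (4721 more negative and 717 more positive on MCD). A threshold of 0.01 gave 1007 genes on chow (565 lower, 442 higher) and 2144 between diets (956 more negative, 1188 more positive). The median log2 ratio of the 10 genes of MCD over chow was 2.70 with IgG and 3.09 on column totals. With anti-ACBP it was 0.40 and, without centring, 0.70. For MCD anti-ACBP over chow IgG it was 0.45, then 0.74 on column totals and 0.77 without centring. By construction, these scalings shift every gene by the same amount. On chow the means of Cx3cr1 were 25.3 and 14.5 normalized counts, and counting error limits what can be seen at such levels.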
